A study of Mus musculus with 6 samples.

Results

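The changes shared by 2 mouse epiblast stem cell (EpiSC) lines after treatment with the inhibitor SB431542 were measured on 4 of the 6 one-colour Agilent arrays of the study. One line came from E3.5 embryos and the other from E5.5 embryos, both of strain 129. The treated cells of each line received 20 µM SB431542 daily for 4 days, and the untreated cells of the same line received none. The other 2 arrays held mouse embryonic stem (mES) cells of strain 129 from E3.5 embryos, with and without the same treatment. All 6 samples, controls included, grew in Knockout DMEM with 20% KSR. Each line and treatment has 1 array, so the 2 lines serve as the replicates, and nothing in the labels says whether a line is 1 clone. Of 34500 probes above background on the brighter array of both EpiSC pairs, 2037 were at least 2-fold higher and 1710 at least 2-fold lower with SB431542 in both lines. These 3747 probes, of 41165 used, were the ones described, and they represented 1748 of 15416 named genes tested and 17015 on the array.

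Each signal was put on a log2 scale with the array's 75th percentile as 0, so a difference of 1 is a 2-fold change. The share of spots well above background ran from 82.6% to 85.7%, and 0 spots were saturated. Precision is limited by the small number of arrays. The untreated EpiSCs carried the markers of their label. Fgf5, which encodes a growth factor of the implanted epiblast, stood at 3.07 in the E3.5 line and 4.32 in the E5.5 line against -2.62 in untreated mES cells, and T, the brachyury gene of the primitive streak, stood at 1.48 and 1.07 against -2.40. Otx2, a transcription factor of the epiblast and anterior brain, stood at -0.18 and 2.54 against -0.04, so only the E5.5 line lay well above mES cells. Dppa5a, a marker of naive pluripotency, stood at -0.12 and -0.86 in the EpiSC lines against 8.75 in mES cells. Both mES and both E5.5 arrays lay on 1 slide, while the untreated and the treated E3.5 arrays each lay on a slide of their own, so in the E3.5 line slide and treatment cannot be told apart and the E5.5 values are the ones within a slide.

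Activin and Nodal are secreted ligands of the TGF-beta family that bind type II and type I receptor kinases, with Tdgf1 (Cripto) as a co-receptor for Nodal, and the activated type I receptor phosphorylates Smad2 and Smad3, which enter the nucleus with Smad4. SB431542 inhibits the kinase activity of those type I receptors and of the one for TGF-beta. In EpiSCs Activin and Nodal signalling sustains pluripotency genes, and pluripotent cells that lose it while BMP signals are low are known to turn toward neural fates.

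By limma (adjusted p under 0.05), 10 of 18 core pluripotency genes and 12 of 35 Nodal and Activin pathway genes fell with SB431542. So did 15 of 38 epithelial genes, while 20 of 36 neural progenitor genes and 24 of 35 neuron genes rose. Of all named genes tested, 4.2% fell and 3.31% rose by the same test. The Oct4 gene Pou5f1 fell furthest among genes above background on all 4 arrays, from 5.73 to -5.39 in the E3.5 line and from 5.88 to -4.38 in the E5.5 line. Hes5, a transcriptional effector of Notch, rose furthest, from -1.28 to 6.08 and from -1.66 to 4.92. These genes were chosen for the size of their change, which fixes that treated and untreated arrays do not overlap. In bulk RNA, fewer cells that express a gene and less of its RNA per cell cannot be told apart.

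By limma with the line as a block, 1364 of 34500 probes (3.95%) were higher and 1129 (3.27%) lower at an adjusted p under 0.05, and 8880 passed at an unadjusted p under 0.05. All of these calls also met the rule of a 2-fold change in both lines, which 2037 probes met upward (5.9%) and 1710 downward (4.96%). A change of 2-fold in opposite directions was found for 159 probes (0.461%). A fit without the block called 1063 probes. The same fit called 0 without the treated E3.5 array (5210 at an unadjusted p under 0.05) and 325 without the treated E5.5 array. With normexp background correction the calls were 1626 higher and 4784 lower, so 25.4% were higher in place of 54.7%.

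The probes represented 15416 named genes tested, each by its brightest probe. Of these genes 511 (3.31%) rose and 647 (4.2%) fell by limma, and 784 (5.09%) were at least 2-fold higher and 964 (6.25%) at least 2-fold lower in both lines. The shares called are the background for every count of list members below. In the E3.5 pair alone 11.5% of named genes were 2-fold higher and 19.6% lower (13.5% and 17.1% of probes), and in the E5.5 pair 6.7% and 8.95% (7.57% and 7.18% of probes). The shared higher probes were 43.6% of those that were 2-fold higher in the E3.5 pair and 78.0% of those in the E5.5 pair, and the shared lower ones were 28.9% and 69.0%. Of named genes 0.525% moved 2-fold in opposite directions. Across all tested probes the changes in the pairs correlated with Pearson's r 0.72 and Spearman's rho 0.68. The pairs share no array, and probes are not independent replicates.

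The change was usually wider in the E3.5 line, in which 544 of the 784 shared higher genes and 612 of the 964 shared lower genes had the larger value. The median of the shared higher genes was 2.14 in the E3.5 pair and 1.77 in the E5.5 pair, and that of the shared lower genes was -2.11 and -1.81. The median of all named genes was -0.30 and -0.05, and the standard deviation over probes was 1.26 and 0.93. Quantile normalization brought the first of these medians to -0.16, and normexp brought the second to -0.23, so small changes that run the same way across a whole list are to be read against those values. In both lines 246 genes were at least 4-fold higher and 328 at least 4-fold lower. A change of 16-fold or more in both was met by 28 and 60 genes, and of 64-fold or more by 1 and 10.

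At the edge of the 2-fold rule, Rab39b and Fcgrt lay just inside, with a smaller change of 1.001, and Senp7 and Erbin just outside, with 0.999. On the lower side Eef1akmt4 and Olfr346 lay just inside and Pramel27 and Vip just outside. Of 295 shared higher genes with another tested probe, 25 had one of opposite sign, and of 244 shared lower genes 9 did. Among shared probes, 873 higher and 456 lower ones were not named here.

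**Figure D1:**
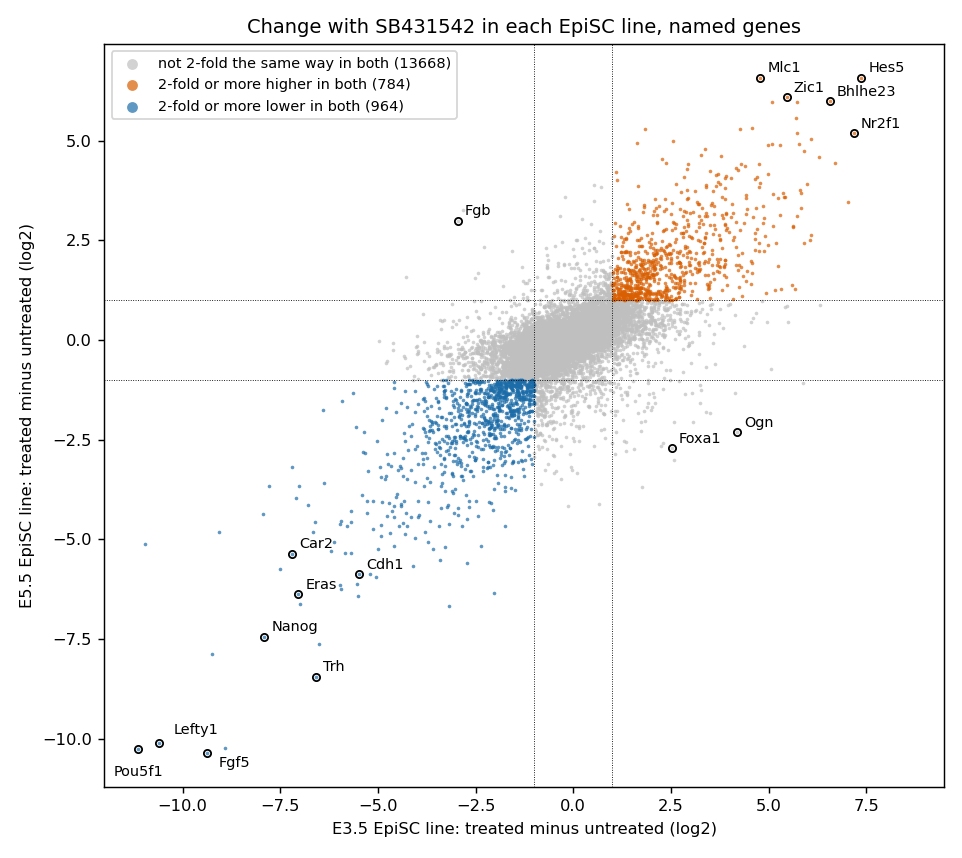
Change with SB431542 (treated minus untreated, log2) in the E3.5 line on the horizontal axis and the E5.5 line on the vertical axis, 1 point per named gene, with dotted lines at 2-fold and a ring on labelled genes. The 784 shared higher and 964 shared lower genes lie in opposite corners, with Hes5 at one end and Pou5f1, Lefty1 and Fgf5 at the other, and Fgb, Foxa1 and Ogn went opposite ways.

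The genes of Nodal and Activin signalling are given by their role. Of 35 pathway genes tested, 12 fell, 1 rose and 22 did not pass. Nodal itself had no named probe. The median change of the 35 genes was -0.84 in the E3.5 pair and -0.83 in the E5.5 pair, beside -0.30 and -0.05 for all named genes.

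Among 7 ligand genes Gdf3 and Tgfb1 fell. Gdf3, a ligand that signals through the Nodal co-receptor, went from 2.55 to -5.39 in the E3.5 line and from 2.37 to -2.0 in the E5.5 line (mean -6.15 ± 0.83, moderated SE, n = 2 pairs, limma adjusted p = 0.018). Every value after ± is this moderated SE, which limma draws toward a spread common to all probes. It is therefore not the spread of the 2 pairs alone. Tgfb1 went from -2.19 to -4.25 and from -1.75 to -3.61 (-1.95 ± 0.28, limma adjusted p = 0.0217). Both lines moved the same way for each, though Gdf3 dropped further in the E3.5 line. The Activin subunit gene Inhba stood at -0.45 in the E3.5 pair and -2.07 in the E5.5 pair and did not pass (limma adjusted p = 0.164).

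By limma 0 of the 7 receptor genes passed, and 2 had an unadjusted p under 0.05 (Acvr2a and Tgfbr1). The targets of the inhibitor are encoded by Acvr1b, Acvr1c and Tgfbr1, whose mean differences were -0.41 ± 0.29, -0.09 ± 0.33 and 1.51 ± 0.38. The type II receptor gene Acvr2a was 2-fold higher in both pairs (1.16 and 1.04) without passing (limma adjusted p = 0.0879). Both co-receptor genes fell. Tdgf1 went from 2.67 to -4.33 in the E3.5 line and from 3.44 to -3.19 in the E5.5 line, a mean of -6.82 ± 0.29 (limma adjusted p = 0.00589). Cfc1 (Cryptic), the other member of the family, changed by -1.83 ± 0.33 (limma adjusted p = 0.0378). Without the line block, 5 of the 12 falls passed, and Gdf3 (adjusted p = 0.0593), Tgfb1 (0.0633) and Cfc1 (0.077) were among those that did not.

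Of 5 antagonist genes 3 fell: Lefty1, Lefty2 and Cer1, secreted inhibitors that Nodal itself induces. Lefty1 went from 5.31 to -5.30 in the E3.5 line and from 6.16 to -3.94 in the E5.5 line, a mean of -10.36 ± 0.30 (limma adjusted p = 0.00549). Lefty2 went from 1.64 to -4.30 and from 3.20 to -3.04 (-6.09 ± 0.29, limma adjusted p = 0.00589). For both, all untreated arrays lay above all treated ones, which their place among the largest shared falls fixes. Cer1 stood at 0.62 and 3.72 untreated and was not well above background on either treated array, so it was at least 449-fold lower. Such bounds set the mean of the bright arrays against, on each dim array, the lowest signal that counted as above background, or the gene's measured signal where that was higher. The Activin-binding protein gene Fst differed between the lines, at -4.58 in the E3.5 pair and -1.06 in the E5.5 pair, and did not pass (limma adjusted p = 0.114).

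Of 7 transducer genes Smad3 rose, Smad7 fell and 5 did not pass. Smad3 went from -0.82 to 0.76 and from -0.78 to 0.60 (1.48 ± 0.28, limma adjusted p = 0.0439), a call lost with quantile normalization (adjusted p = 0.052). Another tested Smad3 probe changed by 0.92 in the E3.5 pair and 0.70 in the E5.5 pair and did not pass (limma adjusted p = 0.158). With the mean over probes Smad3 changed by 1.15 and did not pass (limma adjusted p = 0.0905). Smad7, the inhibitory Smad, went from 1.13 to -0.63 and from 2.09 to -0.08 (-1.96 ± 0.29, limma adjusted p = 0.0235). Smad2, Smad4 and the Smad partner Foxh1 had differences of 0.20 ± 0.30, 0.03 ± 0.28 and -0.24 ± 0.28. Without the block neither Smad3 (adjusted p = 0.0622) nor Smad7 (0.095) passed. Of 7 target genes, Gsc, Eomes, Mixl1 and Pmepa1 fell, of which only Eomes passed without the block. Eomes, a T-box factor of the mesendoderm, changed by the same amount in each line, from -1.35 to -6.26 and from -0.17 to -5.09 (-4.92 ± 0.28, limma adjusted p = 0.00589). Gsc, a homeobox gene of the organizer, changed by -6.51 and -7.62, though its treated E3.5 signal was not well above background, which gives at least 85.1-fold lower in that line.

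**Figure D2:**
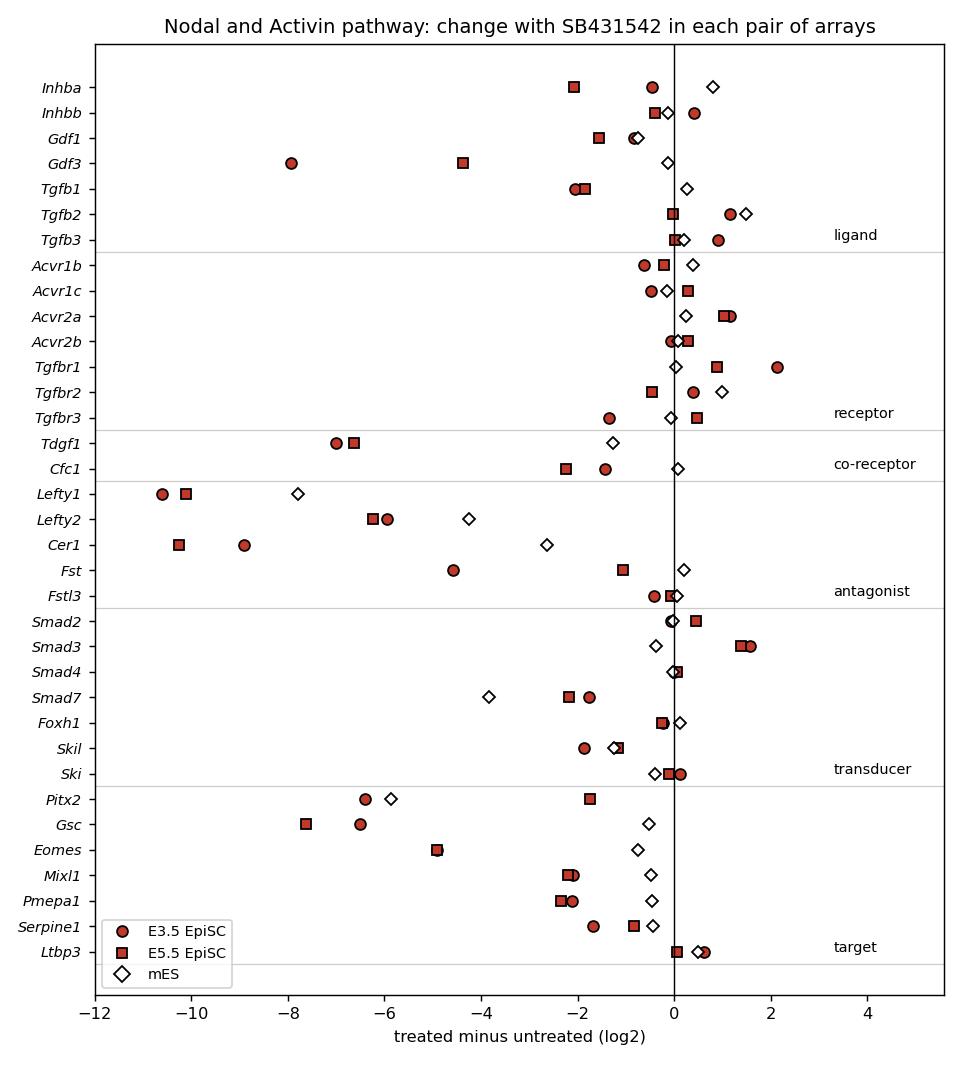
Change with SB431542 (treated minus untreated, log2, horizontal axis) of 35 Nodal and Activin pathway genes grouped by role, in the E3.5 EpiSC (circle), E5.5 EpiSC (square) and mES (diamond) pairs, 1 array per arm. The antagonists Lefty1 and Lefty2 lie far to the left in all 3 pairs, Tdgf1, Gdf3 and Gsc far to the left in the EpiSC pairs, and the receptors Tgfbr1 and Acvr2a to the right of 0 in the EpiSC pairs.

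Of 18 core pluripotency genes tested, 10 fell, 0 rose and 8 did not pass, with a median of -1.99 in the E3.5 pair and -2.09 in the E5.5 pair. Pou5f1 changed by -10.70 ± 0.34 (moderated SE, n = 2 pairs, limma adjusted p = 0.00549). Nanog, a homeobox factor that holds cells in the pluripotent state, went from 2.80 to -5.11 in the E3.5 line and from 3.60 to -3.84 in the E5.5 line (-7.68 ± 0.30, limma adjusted p = 0.00589). Every treated array lay below every untreated one for both genes, which their place among the largest shared falls fixes.

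Eras, a Ras family gene of pluripotent cells, went from 0.74 to -6.30 and from 0.99 to -5.39 (-6.71 ± 0.31, limma adjusted p = 0.00589). Utf1, a chromatin factor of pluripotent cells, went from 2.46 to -4.21 and from 1.39 to -3.42 (-5.74 ± 0.49, limma adjusted p = 0.00745). Sox2, which pluripotent cells share with neural progenitors, was high on all arrays, at 2.11 and 2.77 in the E3.5 line and 2.48 and 2.80 in the E5.5 line, and did not pass (0.49 ± 0.29, limma adjusted p = 0.336).

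The promoter of Nanog is shown because it holds a composite site for Oct4 and Sox2, the partners of which one gene fell and the other did not pass. It is drawn from RefSeq (GRCm38.p6), 250 bases before to 50 bases after the first of its 2 listed starts, at chr6:122707239-122707538 on the + strand. Capitals mark the match to the joined Oct4 and Sox2 motif, which was searched on both strands and begins 75 bases before the start.
Nanog: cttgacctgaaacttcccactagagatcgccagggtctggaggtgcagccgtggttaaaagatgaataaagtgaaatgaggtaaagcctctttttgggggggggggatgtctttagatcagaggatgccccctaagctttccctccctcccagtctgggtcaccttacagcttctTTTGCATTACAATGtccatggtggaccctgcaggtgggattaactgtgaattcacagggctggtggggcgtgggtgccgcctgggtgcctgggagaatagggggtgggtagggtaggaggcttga
That motif was found in 2 of 32851 promoters of that length (0.00609%).

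Of 18 naive genes 4 fell, 14 did not pass and 0 rose. The falls were Fbxo15, Spp1, Nr5a2 and Tfcp2l1. Fbxo15, an Oct4 target gene, went from -0.54 to -5.21 and from -0.61 to -3.77 (-3.92 ± 0.43, limma adjusted p = 0.0116), from levels far below the 5.30 of untreated mES cells. Of 22 primed epiblast genes 8 fell, 3 rose and 11 did not pass. Fgf5 went from 3.07 to -6.29 in the E3.5 line and from 4.32 to -6.04 in the E5.5 line, a mean of -9.86 ± 0.35 (limma adjusted p = 0.00589). The kinase gene Pim2 (-6.05 ± 0.28), the growth factor gene Fgf8 (-5.83 ± 0.31), the DNA methyltransferase gene Dnmt3b (-4.18 ± 0.28) and Otx2 (-4.05 ± 0.39) fell with it, though Otx2 did not pass without the block (adjusted p = 0.118). The 3 that rose were Meis1, a homeobox gene of neural and blood progenitors (3.97 ± 0.28), and the Wnt modulator genes Sfrp2 (3.32 ± 0.29) and Nkd1 (1.97 ± 0.28).

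Mesendoderm genes, which mark another fate of the epiblast, gave 8 falls and 0 rises among 28 tested, with medians of -0.67 and -0.46. T went from 1.48 to -3.64 and from 1.07 to -3.67 (-4.93 ± 0.29, limma adjusted p = 0.00589). Hhex, a homeobox gene of the anterior endoderm, went from -1.36 to a signal not well above background in the E3.5 line and from 0.42 to -4.13 in the E5.5 line. Cer1, Gsc and Eomes, given above, were in this list as well. Gata4, an endoderm and heart factor, stood at 0.35 ± 0.28 and did not pass (limma adjusted p = 0.472).

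Among the largest falls outside these lists were Trh, which encodes thyrotropin-releasing hormone, the carbonic anhydrase gene Car2 and the ecto-nucleotidase gene Nt5e. Trh went from 1.84 to -4.74 in the E3.5 line and from 6.06 to -2.39 in the E5.5 line, a change of -7.51 ± 0.49 (limma adjusted p = 0.00596, and 0.0795 without the block). Car2 went from 5.72 to -1.48 and from 4.90 to -0.46 (-6.28 ± 0.49, limma adjusted p = 0.00638). Mup6 belongs to a family of near-identical genes that a probe may not separate, and its value (-5.59 ± 0.36) is uncertain for that reason. Genes that went from a clear signal to one not well above background in both lines were led, after Cer1, by Ucma (at least 152-fold lower), the protease gene Mmp25 (at least 67.0-fold) and the phospholipase gene Pla2g10 (at least 30.9-fold), and 70 shared lower genes in all had this pattern. Rassf6 (at least 17.5-fold), Plek2 (15.6-fold), the receptor gene F2rl1 (15.1-fold), Akr1c18 (14.2-fold), the cytokine gene Il7 (12.0-fold) and the coagulation factor gene F5 (9.63-fold) completed the 10 with the highest bounds in their weaker line.

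**Figure D3:**
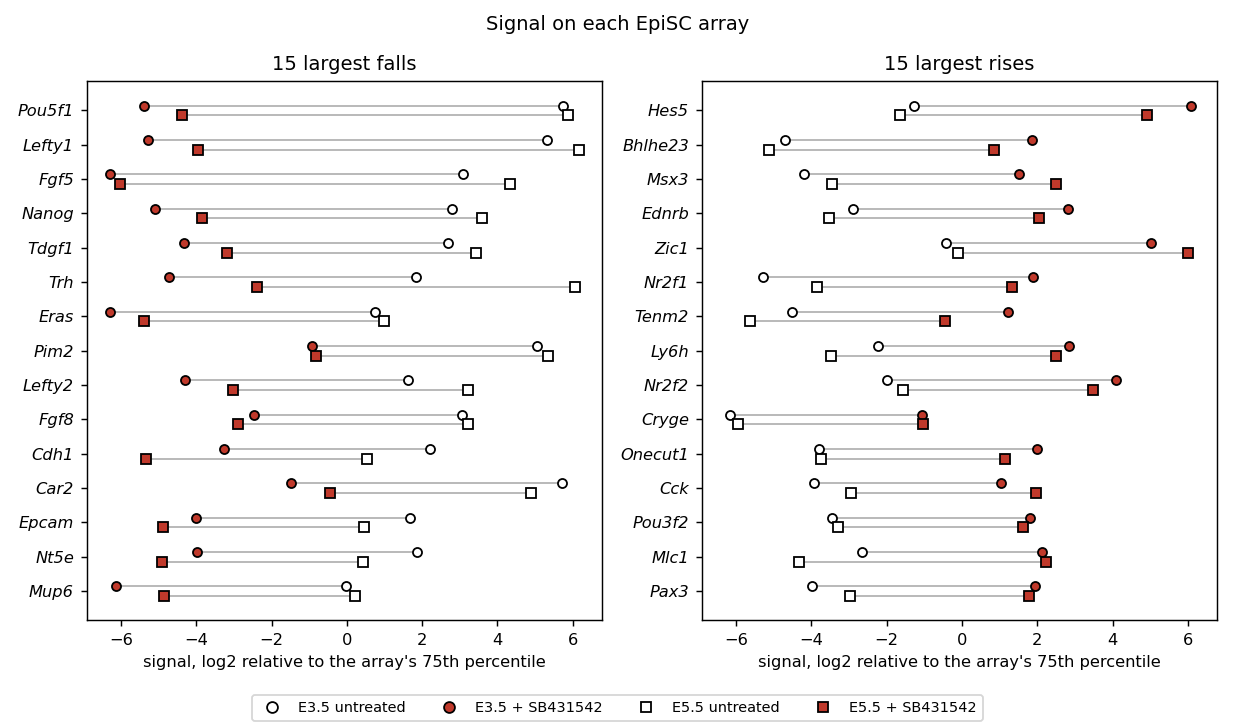
Signal (log2, with each array's 75th percentile as 0, horizontal axis) of the 15 largest shared falls and the 15 largest shared rises on each EpiSC array, open without and filled with SB431542, circles for the E3.5 and squares for the E5.5 line. Open and filled symbols do not overlap for any of the 30 genes, which the choice of genes fixes, and Trh shows the widest gap between the untreated lines, at 1.84 and 6.06.

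Of 38 genes of cell junctions and epithelial identity, 15 fell, 0 rose and 23 did not pass, and the median was -2.75 in the E3.5 pair and -1.16 in the E5.5 pair. By role, 3 of 7 cadherin and desmosome genes, 5 of 13 tight junction genes and 7 of 18 others fell. Cdh1, the E-cadherin gene, went from 2.21 to -3.27 in the E3.5 line and from 0.53 to -5.34 in the E5.5 line (-5.68 ± 0.29, limma adjusted p = 0.00589). Epcam, an epithelial adhesion molecule gene, went from 1.67 to -4.01 and from 0.45 to -4.89 (-5.51 ± 0.29, limma adjusted p = 0.00589). The E5.5 line began and ended lower than the E3.5 line for both genes, and the size of the change was similar.

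The tight junction gene F11r changed by -4.56 ± 0.28 and the polarity gene Crb3 by -4.60 ± 0.29, with its treated E5.5 signal not well above background. Esrp1, a splicing factor gene of epithelia, was not well above background on either treated array and was at least 7.84-fold lower (limma adjusted p = 0.00616). Of 20 genes of mesenchymal transition, Zeb2, a repressor of Cdh1 and a regulator of neural fate, was the 1 that rose, from 0.20 to 1.89 and from 0.27 to 1.93 (1.67 ± 0.28, limma adjusted p = 0.031), and 0 fell. The N-cadherin gene Cdh2 went from -2.08 to 0.96 in the E3.5 line and from -1.57 to -0.35 in the E5.5 line and did not pass (2.13 ± 0.48, limma adjusted p = 0.0673), although it passed where only probes above background on all arrays were tested (adjusted p = 0.0288). The intermediate filament gene Vim stood at 0.98 ± 0.30 and the repressor gene Snai1 at -0.57 ± 0.35, without passing.

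The Epcam promoter is shown because it holds the E-box letters CAGGTG that Zeb and Snail factors bind, in a group of genes that fell. It lies at chr17:87635729-87636028 on the + strand (RefSeq, GRCm38.p6, 250 bases before to 50 after the start). Capitals mark matches on either strand, which begin 187 and 19 bases before the start.
Epcam: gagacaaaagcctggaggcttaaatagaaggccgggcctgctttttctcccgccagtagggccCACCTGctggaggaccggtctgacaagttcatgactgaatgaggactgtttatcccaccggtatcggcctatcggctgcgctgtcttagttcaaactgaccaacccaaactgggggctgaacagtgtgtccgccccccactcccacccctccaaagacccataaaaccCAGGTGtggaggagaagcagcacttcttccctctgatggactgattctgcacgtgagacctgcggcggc
These letters were found in 20.2% of all 32851 promoters, and in 32.9% of 733 shared lower genes, 23.2% of 598 shared higher genes and 22.1% of 12288 tested genes that had a promoter in the table. Matches are descriptions of the letters, and other letters were not compared.

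Of 36 neural progenitor genes, 20 rose, 0 fell and 16 did not pass, with medians of 2.22 in the E3.5 pair and 1.70 in the E5.5 pair. Zic1, a zinc finger factor of the dorsal neural tube, went from -0.43 to 5.03 in the E3.5 line and from -0.10 to 5.99 in the E5.5 line (5.78 ± 0.31, limma adjusted p = 0.00589). Pou3f2, the Brn2 gene, went from -3.47 to 1.81 and from -3.28 to 1.61 (5.09 ± 0.29, limma adjusted p = 0.00589). Treated arrays lay above untreated ones in both lines, which the place of both genes among the largest shared rises fixes. The lines were close in level.

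Pax3, a paired-box factor of the dorsal neural tube, rose by 5.33 ± 0.38, Zic4 by 4.94 ± 0.32 and the endothelin receptor gene Ednrb by 5.63 ± 0.28. Pax6, which marks neural progenitors and the eye, went from -3.68 to -0.11 and from -3.84 to -1.20 (3.11 ± 0.34, limma adjusted p = 0.0119). Sox1, the earliest specific gene of the neural plate, stayed low on all 4 arrays, at -2.75 and -2.38 in the E3.5 line and -2.79 and -2.04 in the E5.5 line, and did not pass (0.56 ± 0.29, limma adjusted p = 0.289). The extracellular matrix gene Tnc had negative values in both lines (-2.80 ± 0.58) without passing (limma adjusted p = 0.055).

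Notch keeps neighbouring progenitors from differentiating at once, and Hes5 is one of its main effectors. Of 25 Notch pathway genes 5 rose, 0 fell and 20 did not pass. Hes5 changed by 6.97 ± 0.33 (limma adjusted p = 0.00589). The ligand gene Dll1 went from -2.07 to 2.10 in the E3.5 line and from -3.35 to 0.96 in the E5.5 line (4.24 ± 0.28, limma adjusted p = 0.00596). The feedback gene Nrarp rose by 3.37 ± 0.37, the modifier gene Lfng by 3.04 ± 0.29 and the receptor gene Notch1 by 1.80 ± 0.28. Hes1, another effector, had negative values in both lines (-0.98 ± 0.29) and did not pass (limma adjusted p = 0.117), and the receptor gene Notch3 stood at -1.07 ± 0.28.

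The Hes5 promoter is shown because it holds the letters GTGGGAA, the core bound by the Notch partner RBPJ. It lies at chr4:154960673-154960972 on the + strand (RefSeq, GRCm38.p6, 250 bases before to 50 after the start). Capitals mark the 2 matches, 1 on each strand, which begin 226 and 83 bases before the start.
Hes5: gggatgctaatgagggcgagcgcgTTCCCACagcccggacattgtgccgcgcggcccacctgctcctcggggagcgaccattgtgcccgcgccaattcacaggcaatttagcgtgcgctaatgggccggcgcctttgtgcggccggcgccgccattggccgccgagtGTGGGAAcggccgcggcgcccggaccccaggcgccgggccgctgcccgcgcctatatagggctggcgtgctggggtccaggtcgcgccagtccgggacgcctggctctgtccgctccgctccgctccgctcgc
The letters, on either strand, were found in 6.38% of all promoters, in 7.3% of those of tested genes, in 7.36% of those of shared higher genes and in 8.59% of those of shared lower genes.

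Genes of differentiating neurons had the highest share of calls of the 38 lists. Of 35 tested, 24 rose, 0 fell and 11 did not pass, with medians of 3.51 in the E3.5 pair and 2.33 in the E5.5 pair. Among 19 factors 13 rose, and among 16 other genes 11 rose. Nhlh1, a helix-loop-helix gene of newborn neurons, went from -4.35 to 2.33 in the E3.5 line and from -3.38 to 1.06 in the E5.5 line (5.56 ± 0.56, limma adjusted p = 0.0103). Onecut2 (4.30 ± 0.35), the zinc finger gene Insm1 (3.86 ± 0.28), the RNA-binding protein gene Celf3 (4.79 ± 0.53) and Ebf3 (4.76 ± 0.54) also rose. Celf3 and Ebf3 ended higher in the E3.5 line, at 3.40 and 3.23, than in the E5.5 line, at 1.18 and 1.45. Stmn2, a growth cone gene, was already at 2.57 and 2.32 without treatment and did not pass (-0.82 ± 0.41, limma adjusted p = 0.275), and Neurog1 and Pou4f1 had small negative values.

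The largest rises above background on all arrays included 8 genes beyond these lists. Bhlhe23, a helix-loop-helix gene, went from -4.71 to 1.86 in the E3.5 line and from -5.13 to 0.86 in the E5.5 line (6.28 ± 0.31). Msx3, a homeobox gene of the dorsal neural tube, went from -4.20 to 1.52 and from -3.46 to 2.51 (5.85 ± 0.28), and Onecut1 rose by 5.34 ± 0.34. Both lines reached similar levels for each of these, and their limma adjusted p lay between 0.00589 and 0.00596. The teneurin gene Tenm2 (5.46 ± 0.30), Ly6h (5.52 ± 0.34), the glial membrane gene Mlc1 (5.68 ± 0.48), the neuropeptide gene Cck (4.94 ± 0.28) and the crystallin gene Cryge (5.0 ± 0.28) also rose. A further 41 shared higher genes were not well above background without treatment in either line. High bounds among them were those of Ptprn2, a gene of secretory vesicles (at least 13.4-fold higher), and of the genes that follow. Adgrl3 (at least 8.06-fold), Rab3c (7.88-fold), Kcnk10 (7.33-fold), Mab21l1 (7.06-fold), the nicotinic receptor gene Chrna3 (5.73-fold), Fgf12 (4.22-fold), Rai2 (3.70-fold) and Zfp9 (3.69-fold) had lower bounds than Ptprn2. Without the block Rab3c, Fgf12 and Rai2 did not pass (adjusted p from 0.0548 to 0.0655). With normexp Adgrl3 changed by 0.79 (limma adjusted p = 0.105) and Kcnk10 by 0.84 (limma adjusted p = 0.0958), and neither passed. Their bounds thus hold only for the main processing.

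**Figure D4:**
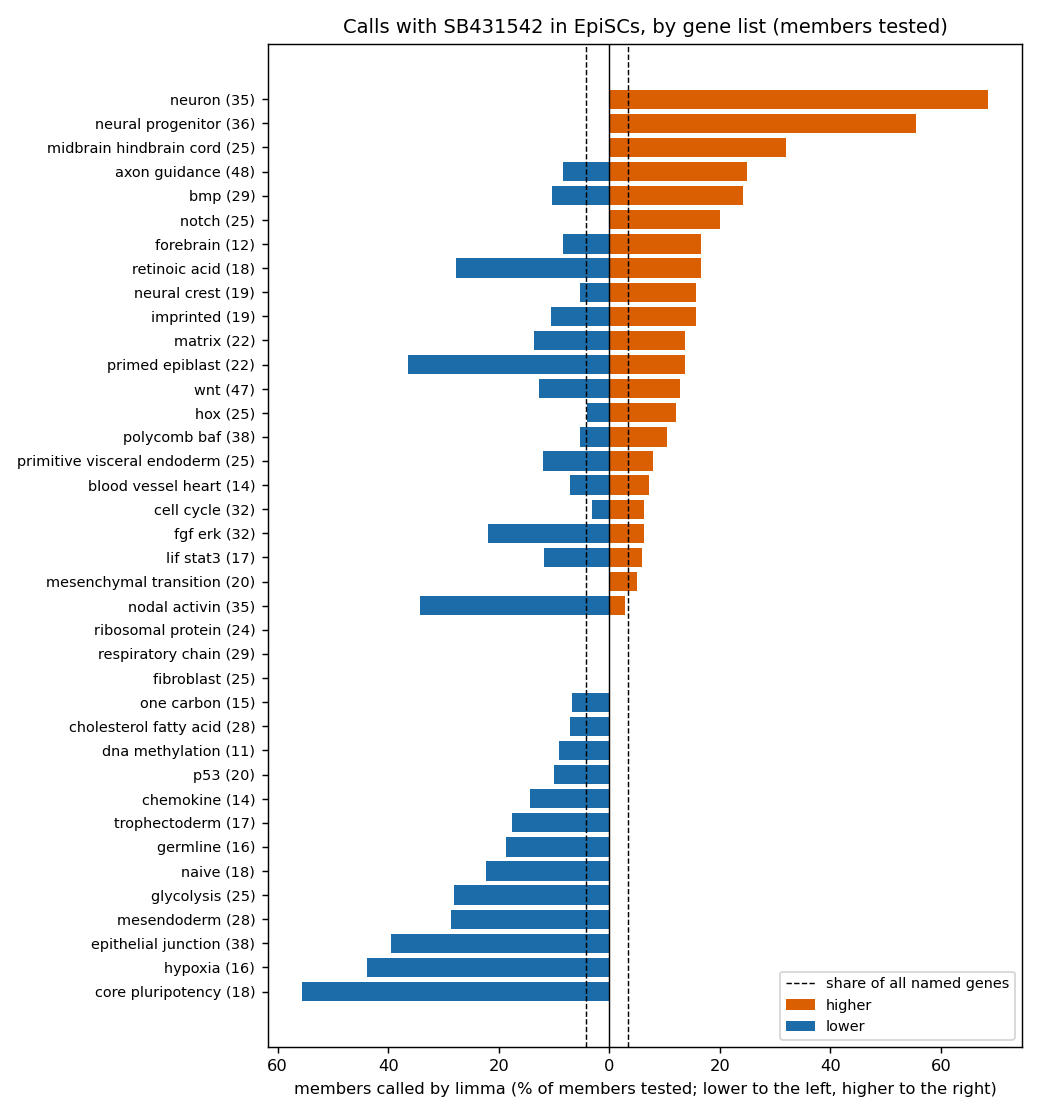
Share of tested members called higher (right, orange) or lower (left, blue) by limma in each of 38 gene lists, as a percentage, with the number tested in brackets and dashed lines at the shares of all named genes (3.31% higher and 4.2% lower). Neuron and neural progenitor lists lead on the higher side with 24 of 35 and 20 of 36 members, and core pluripotency leads on the lower side with 10 of 18.

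Position along the body axis was read from region genes. Of 25 genes of midbrain, hindbrain and spinal cord, 8 rose, 0 fell and 17 did not pass, and the medians were 2.11 in the E3.5 pair and 0.72 in the E5.5 pair. The nuclear receptor gene Nr2f1 went from -5.28 to 1.90 and from -3.85 to 1.34 (6.19 ± 0.52, limma adjusted p = 0.00712), and Nr2f2 rose by 5.57 ± 0.36. The Iroquois genes Irx2 (4.58 ± 0.29), Irx5 (4.05 ± 0.28) and Irx1 (3.69 ± 0.28) rose nearly equally in both lines. En1, a midbrain-hindbrain boundary gene, and its partner genes Pax2 and Pax5 had negative values in both pairs and did not pass.

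Of 12 forebrain genes tested, Vax2 and Lhx2 rose and Otx1 fell. Lhx2 went from -2.78 to -0.13 and from -2.27 to -0.84 (2.04 ± 0.38, limma adjusted p = 0.043). Six3, a factor of the anterior forebrain and eye, stood at -0.97 ± 0.31 and did not pass (limma adjusted p = 0.14). Of 25 Hox and Cdx genes, Hoxb2, Hoxa2 and Hoxa9 rose and Cdx2 fell. Hoxb2, a hindbrain gene, went from 0.88 to 3.71 and from 0.04 to 4.12 (3.46 ± 0.39, limma adjusted p = 0.0122), and Hoxa2 rose by 3.27 ± 0.39. Cdx2, a caudal gene, was not well above background on either treated array. Its untreated signal was 0.62 in the E3.5 line and -4.28 in the E5.5 line, so it was at least 165-fold lower in the first and at least 4.87-fold lower in the second.

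Retinoic acid patterns the hindbrain and is made and cleared by dedicated enzymes. Of 18 genes of this pathway, 3 rose and 5 fell. Those that rose were the clearing enzyme gene Cyp26b1 (4.39 ± 0.42) and the binding protein genes Crabp2 (4.09 ± 0.41) and Crabp1 (3.40 ± 0.57), the last of which went from 3.19 to 5.46 in the E3.5 line and from 2.83 to 7.36 in the E5.5 line. Those that fell were the retinal reductase gene Dhrs3 (-4.46 ± 0.29), Cyp26a1 (-3.31 ± 0.35), the receptor genes Rxrg (-2.76 ± 0.30) and Rarg (-2.01 ± 0.34) and the retinol carrier gene Rbp4 (-1.78 ± 0.34). Cyp26a1 and Cyp26b1, which encode enzymes of the same kind, moved in opposite directions.

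BMP signals act through Smad1 and Smad5 and are not blocked by SB431542. Of 7 BMP target genes 5 rose (Id1, Id2, Id3, Msx1 and Msx2) and 0 fell, with medians of 2.46 and 2.19. Id1 went from 0.23 to 2.69 in the E3.5 line and from 1.67 to 3.86 in the E5.5 line (2.33 ± 0.28, limma adjusted p = 0.0147). Msx2 went from -3.71 to -0.20 and from -2.87 to 1.37 (3.88 ± 0.32, limma adjusted p = 0.00704). Both genes were more than 2-fold higher in each line. The type I receptor gene Bmpr1b rose by 3.73 ± 0.31, while the ligand gene Bmp8b (-3.06 ± 0.32) and the pseudoreceptor gene Bambi (-1.58 ± 0.28) fell. Bmp2, whose treated E3.5 signal was not well above background, changed by -2.24 ± 0.28. Over the 29 BMP genes 7 rose and 3 fell.

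FGF signals run through the kinase ERK, which induces its own feedback genes. Of 32 FGF and ERK genes 7 fell and 2 rose. By role, 5 of 15 feedback and target genes fell and 0 rose. All 15 had a negative mean, as did 9523 of the 15416 named genes tested. The 5 falls included Etv1 (-3.53 ± 0.30), Etv4 (-3.08 ± 0.41) and the inhibitor gene Spry4 (-2.77 ± 0.30). The ligands that fell were Fgf5 and Fgf8. The receptor genes Fgfr3 and Fgfr2 rose. Fgfr3 went from -2.02 to 2.75 in the E3.5 line and from -2.28 to 1.67 in the E5.5 line (4.36 ± 0.33, limma adjusted p = 0.00627), and Fgfr2 went from -3.65 to 0.78 and from -3.60 to 0.03 (4.03 ± 0.33, limma adjusted p = 0.00681). Fgf4 had no named probe.

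Of 47 Wnt pathway genes 6 rose and 6 fell. The ligand genes divided, with Wnt3a higher (3.77 ± 0.60, limma adjusted p = 0.0283) and Wnt8a lower (-6.94 ± 0.97, limma adjusted p = 0.0198). Wnt8a, a gene of the primitive streak, went from 3.62 to -5.44 in the E3.5 line and from 2.45 to -2.37 in the E5.5 line. The receptor gene Fzd3 rose (2.63 ± 0.28) and Fzd5 fell (-3.66 ± 0.34). The antagonist gene Dkk1 fell by 3.43 on the log2 scale and Sfrp4 changed by -3.77 ± 0.67, while Rspo1, which enhances Wnt signals, rose by 2.51 ± 0.29. Each of these moved in the same direction in both lines.

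Axon guidance genes gave 12 rises and 4 falls among 48. The ephrin gene Efnb3 (3.49 ± 0.28), the semaphorin receptor gene Plxna2 (3.63 ± 0.29) and the netrin receptor gene Unc5a (3.28 ± 0.28) rose, and the netrin receptor gene Dcc went from -5.51 to 0.55 in the E3.5 line and from -5.66 to -3.15 in the E5.5 line. The falls were Epha1 (-5.23 ± 0.37), Unc5b (-4.47 ± 0.28), Epha2 (-3.43 ± 0.48) and Sema3e (-2.35 ± 0.28). Paralogs thus moved oppositely, with Unc5a from -1.36 and -1.56 to 2.03 and 1.61, and Unc5b from 2.04 and 2.14 to -2.31 and -2.45. Among 22 matrix genes the laminin genes divided likewise, with Lama1 higher (3.47 ± 0.28) and Lama5 (-2.81 ± 0.40) and Lamb1 (-2.56 ± 0.37) lower, together with Nid2, while the collagen genes Col4a5 and Col2a1 rose.

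Of 16 genes of the response to low oxygen 7 fell, 0 rose and 9 did not pass, with medians of -1.65 in the E3.5 pair and -1.21 in the E5.5 pair. Ndrg1, a stress-responsive gene, went from 1.36 to -1.92 and from 3.09 to -2.10 (-4.23 ± 0.50, limma adjusted p = 0.0134), and the oxygen sensor gene Egln3 changed by -2.74 ± 0.29. Hif1a, whose product is controlled mainly as a protein, stood at 0.31 ± 0.28 and did not pass. The mES pair also had a negative median for this list, at -0.82.

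Of 25 glycolysis genes 7 fell, 0 rose and 18 did not pass, with medians of -1.30 and -1.05 (-0.81 and -0.83, with 4 falls, under quantile normalization). The lactate transporter gene Slc16a3 went from 5.52 to 1.68 in the E3.5 line and from 5.27 to 3.06 in the E5.5 line (-3.03 ± 0.45, limma adjusted p = 0.0236). The glucose transporter genes Slc2a3 (-2.71 ± 0.44) and Slc2a1 (-1.99 ± 0.28) and the hexokinase gene Hk2 (-2.36 ± 0.42) fell as well. Of 28 cholesterol and fatty acid genes 2 fell, Fdps among them, and of 15 one-carbon genes Mthfd1l fell. These small counts are not far from the 4.2% of all named genes that fell. Under quantile normalization 0 genes of either list passed. By limma 0 of 29 respiratory chain genes and 0 of 24 ribosomal protein genes passed. All 24 ribosomal protein genes had a negative mean, with medians of -0.72 and -0.32, but these were -0.06 and -0.05 with quantile normalization.

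Among 38 Polycomb and BAF chromatin genes 4 rose and 2 fell. Polycomb complexes carry 1 of several Cbx subunits, and here Cbx8 rose while Cbx7 fell. Cbx8 went from -3.28 to -0.53 in the E3.5 line and from -2.92 to -0.24 in the E5.5 line (2.72 ± 0.28, limma adjusted p = 0.0104). Cbx7 went from 2.65 to -0.44 and from 2.40 to -0.97 (-3.23 ± 0.28, limma adjusted p = 0.00793). The 2 lines gave nearly equal changes for both genes. The core subunit gene Bmi1 (2.54 ± 0.29) and the BAF subunit gene Smarcd3 (2.26 ± 0.30) rose, and Phc1 (-2.27 ± 0.33) fell. Of 11 DNA methylation genes 1, Dnmt3b, passed, and the related Dnmt3a stood at -1.15 ± 0.28 (limma adjusted p = 0.0796).

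Of 32 cell cycle genes the inhibitor genes Cdkn1c (1.71 ± 0.28) and Cdkn2c (1.52 ± 0.29) rose and the kinase gene Cdk6 (-2.93 ± 0.41) fell, and by limma none of the 15 replication and mitosis genes passed. The cell cycle counts lie near the shares of all named genes, 3.31% higher and 4.2% lower. Another inhibitor gene, Cdkn1a, was lower in both pairs (-2.38 and -1.06) without passing (limma adjusted p = 0.0719). Of 19 imprinted genes, Ndn (1.92 ± 0.28), Cdkn1c and Mest (1.69 ± 0.30) rose, and Phlda2 (-3.93 ± 0.45) and Snrpn (-2.01 ± 0.35) fell. Of 16 germline genes, Tex19.1 (-4.59 ± 0.30), Prdm1 and Rhox5 fell. Of 20 p53 target genes, Perp (-4.08 ± 0.61) and Phlda3 (-2.25 ± 0.37) fell. Of 17 LIF and STAT3 genes, Jak2 rose (1.72 ± 0.28) and Pim2 and Tfcp2l1 fell, and of 14 chemokine genes Ccl20 and Cxcl10 fell.

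Most list counts were lower without the line block. The neuron list then had 15 rises, the neural progenitor list 14, the midbrain, hindbrain and cord list 6 and the Notch list 4. The core pluripotency and epithelial lists each had 7 falls, the mesendoderm list 3, the hypoxia list 2 and the glycolysis list 1. In the cell cycle, p53, chemokine, cholesterol and fatty acid, one-carbon, and blood, vessel and heart lists 0 genes passed, so the rises and falls named for them rest on the block. The FGF list then had 2 rises and 6 falls, the BMP list 3 and 1, the Wnt list 4 and 3, the retinoic acid list 2 and 2 and the axon guidance list 5 and 4. Genes given above that then did not pass include Crb3 (adjusted p = 0.0735), Esrp1 (0.107), Hhex (0.0958), Id1 (0.144), Cdx2 (0.146), Cyp26a1 (0.22) and Dcc (0.148).

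Markers of other cell types were tested in the same way. Of 19 neural crest genes 3 rose and 1, Tfap2c, fell, and the BMP targets Msx1 and Msx2 were among the rises. Of 17 trophectoderm genes, Cdx2, Bmp8b and Tfap2c fell. Of 25 genes of primitive and visceral endoderm, Lama1 and Plat rose and Lamb1, Rhox5 and Apoe fell. Of 14 blood, vessel and heart genes, Hbb-bh1 rose and Myl7 fell.

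Fibroblast markers, which would mark any feeder cells, gave 0 of 25 calls by limma and parted between the lines, with a median of 0.43 in the E3.5 pair and -0.73 in the E5.5 pair. The summed signal of the 25 markers, as log2, went from 6.63 to 6.33 in the E3.5 line and from 7.33 to 7.25 in the E5.5 line, and none of them was at background on all 4 arrays. Their part in the results was not tested. The collagen genes Col1a1 (1.99 and -1.75), Col1a2 (1.63 and -0.82) and Col3a1 (2.87 and -1.36) had opposite signs in the E3.5 and E5.5 pairs. So did the matrix genes Lum (3.04 and -1.33), Postn (2.29 and -2.60) and Dcn (1.82 and -0.41). The contractile genes ran the other way, with Tagln at -2.52 and 1.57 and Acta2 at -0.81 and 0.09, and the surface marker Thy1 stood at -0.05 and -1.77. The smooth muscle gene Cnn1 went from 2.64 to -1.98 in the E3.5 line and from 2.48 to 2.40 in the E5.5 line.

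The mES pair, 1 array against 1, gives no test of its own. In it 198 of 15214 named genes (1.3%) were at least 2-fold higher and 143 (0.94%) at least 2-fold lower, and the standard deviation over probes was 0.36. Of the shared higher EpiSC genes measured there, 22 of 711 (3.09%) were 2-fold higher in mES cells too and 10 were 2-fold lower. Of the shared lower genes, 71 of 948 (7.49%) were 2-fold lower too and 12 higher. The median mES change of the neuron list was -0.02, that of the core pluripotency list -0.12 and that of the epithelial list -0.10. The neural progenitor list also had a median of -0.02 there, but 5 of its 36 members were 2-fold higher in mES cells and 0 lower. In the neuron list 1 of 35 was 2-fold higher and 1 lower. Members of these lists were counted without a background filter in mES cells.

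Of the Nodal pathway, the inhibitor genes Lefty1, Lefty2 and Smad7 were more than 2-fold lower in the mES pair too, while the targets Gsc, Pmepa1 and Mixl1 changed there by less than 2-fold (-0.52, -0.46 and -0.47). Lefty1 went from 3.58 to -4.21 there, Lefty2 from 0.97 to -3.28 and Smad7 from 1.23 to -2.59. Pou5f1 stayed at 5.59 and 5.35, Nanog at 3.48 and 2.81, Cdh1 at 2.77 and 2.76 and Hes5 at -1.20 and -1.06. The difference between the EpiSC and mES effects was tested with limma over 33502 probes, and 0 passed (0%), with 3294 at an unadjusted p under 0.05. For Pou5f1 it was -10.45 ± 0.57 (adjusted p = 0.0855), for Hes5 6.83 ± 0.56 (adjusted p = 0.0855), for Lefty1 -2.57 ± 0.51 (adjusted p = 0.173) and for Smad7 1.86 ± 0.50 (adjusted p = 0.288). The count was 181 where all arrays had to be above background and 629 with normexp.

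**Figure D5:**
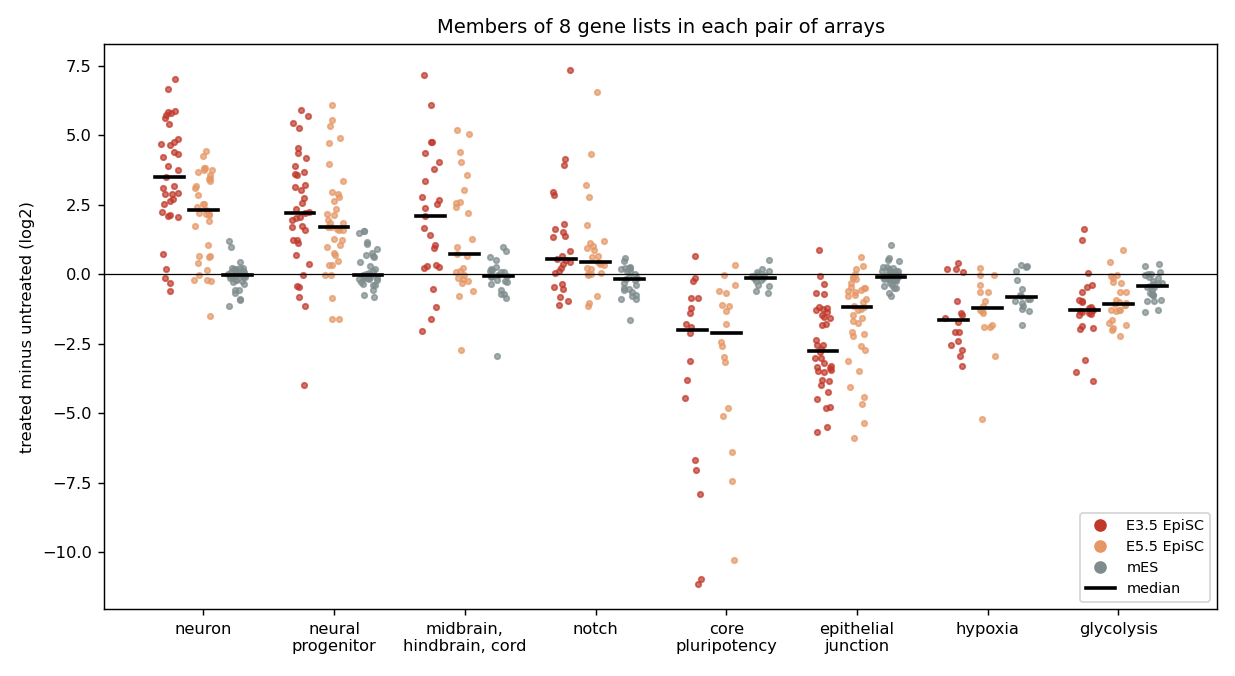
Change with SB431542 (treated minus untreated, log2, vertical axis) of the tested members of 8 gene lists in the E3.5 EpiSC, E5.5 EpiSC and mES pairs, 1 point per gene, with black bars at the medians. The neuron list has medians of 3.51, 2.33 and -0.02 in these pairs, the core pluripotency list -1.99, -2.09 and -0.12, and the hypoxia list -1.65, -1.21 and -0.82.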

How the data were processed

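Total RNA carried Cy3 on 1-colour Agilent arrays, per the labels. Spot intensity was taken from the deposited scanner files, where Feature Extraction had already subtracted the background and corrected for trends across the array. Its version reads 10.7.1.1 in the file headers and 9.1 in the submitters' processing notes, and which applies is not settled. A deposited value table held the same intensities at 45018 of 45018 spots per array. Controls and spots with an outlier mark were dropped, and repeats of a probe were averaged. A further 9 probes had no usable spot, leaving 41165. Values are log2 of the intensity minus the array's 75th percentile. Of these, 24373 probes were named through transcript accessions in the RefSeq table (GRCm38.p6), for 17015 genes.

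Probes were tested where the brighter array of both pairs was flagged well above background. limma 3.58.1 in R 4.3.3 fitted line plus treatment on the 4 EpiSC arrays, with 1 residual degree of freedom and a prior of 4.27, and Benjamini-Hochberg adjustment over all tested probes at 0.05. The line pairs treated with untreated arrays, as the labels give it. Since the labels name no separate cultures, p-values here measure only how far these samples spread, and that spread may be technical. The comparison with mES cells added the mES arrays and assumed that they vary like the EpiSC pairs. The scripts were tested on simulated data. Alternatives were quantile and median scaling, normexp with an offset of 50 (on the median spot signal, since the files used here hold no mean signal), other filters on dim probes, other probe rules, the value table, no block and leaving out each array.

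Named genes are the 15 shared rises and 15 shared falls with the largest smaller change, the 10 in each direction with the highest bounds from background, all Nodal pathway genes (some given only as counts), up to 5 per direction of each other list, fixed markers and the 5 largest opposite changes; Id3 and the genes at the edge of the 2-fold rule were chosen after their values were seen. The 38 lists held 937 genes, of which 876 were tested. Results for a few genes that these rules name are not reported here. Members and lists were chosen with earlier results of these data known.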

Additional observations from a re-analysis of the deposited data

Results flagged for a closer look

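Several genes and 1 list had opposite signs in the lines, and the difference was not tested, since each line has 1 array per arm. Fgb, a fibrinogen gene, changed by -2.96 in the E3.5 pair and 2.99 in the E5.5 pair. Lilra5, an immune receptor gene, changed by 2.58 and -3.02. Foxa1, an endoderm factor gene, changed by 2.52 and -2.72. Ogn, a matrix proteoglycan gene, changed by 4.19 and -2.32. The median of the fibroblast list was 0.43 in the E3.5 pair and -0.73 in the E5.5 pair. Lilra5 was above background on 1 array of each pair.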

How the results depend on the processing

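The line pairs the arrays, and without that block 1063 probes passed in place of 2493. With normexp 6410 passed, with no filter on dim probes 1319, with 1 probe per gene 1082 and with the mean over probes 811. Leaving out 1 array gave 0 to 1227 (without the block). The shared 2-fold probes numbered 3747, or 1748 with 1 probe per gene, 1724 with the mean over probes, 7697 at 1.5-fold and 1221 at 4-fold. The difference from mES cells gave 0 calls, 181 with all arrays above background and 629 with normexp, and 0 to 32 with 1 array left out. With normexp the shared probes totalled 2591, but 812 were higher and 1779 lower (31.3% higher in place of 54.4%). The total counts under the other settings lay within 1.5 times of these. The 65 named genes checked were, apart from Sox1, Sox2 and Cdh2, chosen for a call in the main fit. Genes named only as members of lists other than the Nodal list were not checked. None of the 65 reversed under any setting that tested them, and that choice makes a reversal unlikely. With normexp 58 of them were tested, and 43 with all arrays above background. Without the block 14 lost their call. Calls were also lost with any 1 of the 4 EpiSC arrays left out, and all of them without the treated E3.5 array. A fit of that kind leaves 1 array in an arm. The cause was not tested. Signal over background limits the bounds: 713 of 784 shared higher and 832 of 964 shared lower genes were above background on all 4 arrays, and in 41 and 70 the dimmer array was at background in both lines.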
